A study of Mus musculus with 4 samples.

Results

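Nuclear receptor coregulators are the proteins that carry the signal of a nuclear receptor to chromatin and to RNA polymerase. Described here are 9 of them, out of 18364 genes in the table, chosen by symbol as a list of coactivators and corepressors. The corepressors are *Ncor1*, *Hdac3* and *Nrip1*, the coactivators are *Ncoa1*, *Ncoa2* and *Ncoa3* with the acetyltransferases *Crebbp* and *Ep300*, and *Med1* is a subunit of Mediator. All 9 were found, and each had reads in all 4 libraries.

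The libraries were bulk RNA-seq of sorted large peritoneal macrophages (LPMs), a resident population of the abdominal cavity, from C57BL/6 mice aged 8 weeks. There were 2 libraries labelled WT, with the genotype wild type, and 2 labelled Rxra-KO, with the genotype Rxra-/-. Per the methods of the study, mice with loxP sites around *Rxra* were crossed with mice that express Cre from the *LysM* (*Lyz2*) locus, so the deletion concerns myeloid cells, and floxed mice without Cre were the controls. Cells were gated as positive for F4/80 and CD102 and negative for MHC class II. The labels do not say how many mice gave a library, so p-values measure the spread between these libraries, which may be partly technical. The study states that RNA-seq samples not clustering with their group were excluded. Such a selection can narrow the spread between the libraries kept, so p-values may be too small.

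The retinoid X receptors (RXRs) pair with other nuclear receptors on DNA. In the absence of an agonist, many of these pairs hold a corepressor complex in which NCOR1 is the scaffold and HDAC3 removes acetyl groups from histones. Binding of a ligand reshapes the receptor, and the corepressor leaves. Proteins of the NCOA family (also called SRC) bind through short leucine-rich motifs and bring in CREBBP and EP300. The Mediator complex contacts the receptor through its subunit MED1. NRIP1, also called RIP140, differs in that it binds receptors carrying an agonist and yet recruits repressors; it is known for its part in lipid metabolism and, in macrophages, in the control of inflammatory genes.

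Of the 9 coregulators, *Nrip1* fell in the libraries labelled Rxra-KO, to 0.415 of its WT level, and the other 8 did not pass the test. Against this, 0.969% of all genes were called lower, 1.32% higher and 2.29% in either direction. Calls were made with limma on log2(value + 1) and needed a Benjamini-Hochberg adjusted p under 0.05 together with a log2 fold change of 0.6 or more in size. The value is the normalised read signal of the deposited table, in which 1 read is worth 0.993 to 1.51. Fold changes are on this log2 scale, where the added 1 shrinks those of low genes. The median log2 fold change was 0.09 over the 9 coregulators and 0.02 over all genes. The groups did not overlap for 3 of the 9 coregulators, as against 38.1% of all genes.

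The targeted gene and the markers of the sorted cells bear on every direction given here. The *Rxra* reads numbered 20 and 28 in WT but 33 and 77 where the label is Rxra-KO, so the gene was not lower there (difference 0.99 on the log2 scale, limma adjusted *p* = 0.183). Reads summed over a whole gene cannot show whether the floxed exons were lost, so these values check neither the deletion nor the labels. Depth was 652542 and 947372 reads in the WT libraries against 629030 and 1047021. The summed signal of 8 LPM markers was 37235 to 39296 in WT and 19463 to 21539 in Rxra-KO. Most of it was *Prg4*, at 28429 and 29683 in WT and 15129 and 16567 in Rxra-KO. Of the 8, *Timd4* (log2 fold change -0.80) and *Csf1r* (0.36), named after their values were seen, were not called. The other 6 were called lower in Rxra-KO and none higher. They were *Gata6*, *Icam2*, which encodes the CD102 of the gate, *Emr1*, which encodes F4/80, *Prg4*, *Ltbp1* and *Itgam*. Their log2 fold changes ran from -2.32 to -0.88. When 1 library was left out, 3 of these calls were lost, *Gata6* without Rxra-KO replicate 1 (-1.31, limma adjusted *p* = 0.193), *Emr1* without WT replicate 1 or Rxra-KO replicate 2, and *Prg4* without either WT library. Of 7 markers of small peritoneal macrophages (SPMs) and monocyte-derived cells, 6 were called higher (*Ccr2*, *Irf4*, *Mrc1*, *Retnla*, *Cd209a* and *Fcrls*, from 1.54 to 7.17), with a summed signal of 394 and 123 in WT and 4326 and 5777 in Rxra-KO, while *Ly6c2* had at most 5 reads. *Irf4* was not called without either Rxra-KO library, nor *Cd209a* without Rxra-KO replicate 2. Of 30 markers of lymphocytes (B and T cells), neutrophils, mast cells and mesothelium, 21 were read. Limma, edgeR, voom and DESeq2 each called 0 of the 21, where limma called 2.29% of all genes. However, 18 of the 21 had at most 10 reads in every library, so these 0 calls say little about other cells. An unadjusted limma p under 0.05 was found for 1 (*Ms4a1*, named after its value was seen, with at most 5 reads). Their summed signal was 151 to 163 in WT and 154 to 168 in Rxra-KO. T cell markers gave 101 and 79.2 of it in WT and 91.8 and 73.5 in Rxra-KO. The part of this shift between macrophage markers in the coregulator values was not tested. In bulk RNA, fewer cells of a type and less RNA per cell cannot be told apart.

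*Nrip1* was the only coregulator called. Its signal was 157 and 88.4 in the WT libraries, from 103 and 81 reads, and 47.4 and 49.2 in the libraries labelled Rxra-KO, from 31 and 49 reads. Both Rxra-KO libraries lay below both WT libraries, and the spread was in WT, since the Rxra-KO libraries were close to each other. The mean went from 123 ± 48.3 to 48.3 ± 1.23 (SD, n = 2), so that *Nrip1* fell by 1.27 in log2 units (SE 0.31, 95% confidence interval -1.88 to -0.66, limma adjusted *p* = 0.00409 over all genes). In fold terms the interval runs from 0.272 to 0.633 of the WT level. By mean signal, not divided by length, it stood at place 1361 among all genes in WT and at place 3607 in Rxra-KO.

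The call for *Nrip1* depended on single libraries. Without WT replicate 1, the library with the highest signal, the log2 fold change was -0.86 and the call was lost (limma adjusted *p* = 0.442), and without Rxra-KO replicate 1 it was -1.24 and also not called (limma adjusted *p* = 0.0608). It was called without WT replicate 2, at -1.68, and without Rxra-KO replicate 2, at -1.29. WT replicate 1, where *Nrip1* was highest, also had the larger SPM marker sum of the WT libraries. A link between these values was not tested. Taken alone, a gene in 2 against 2 libraries can reach at best 0.333 in a two-sided exact permutation test, so the limma call uses the spread shared with other genes.

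The sequence before each *Nrip1* start is shown because *Nrip1* is the coregulator that was called. In the GENCODE vM21 gene models its longest coding transcript has 4 exons, and its coding sequence lies in 1 exon. The RefSeq promoter table of build GRCm38.p6 gives 2 starts, 778 bases apart on the minus strand. The 250 bases before each are given 5′ to 3′, with matches on either strand in capitals. The motifs searched were AGGTCA, the consensus half-site of nuclear receptors, GGGTCA, a common variant of it, AGTTCA, a variant known from retinoid response elements, and GGGCGG, the GC box.
Outer start, chr16:76373828-76374077: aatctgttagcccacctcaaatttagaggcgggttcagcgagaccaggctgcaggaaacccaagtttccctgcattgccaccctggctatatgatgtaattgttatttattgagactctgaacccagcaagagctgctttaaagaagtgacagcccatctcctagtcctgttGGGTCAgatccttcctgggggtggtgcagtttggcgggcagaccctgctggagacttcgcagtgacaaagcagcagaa
Inner start, chr16:76373050-76373299: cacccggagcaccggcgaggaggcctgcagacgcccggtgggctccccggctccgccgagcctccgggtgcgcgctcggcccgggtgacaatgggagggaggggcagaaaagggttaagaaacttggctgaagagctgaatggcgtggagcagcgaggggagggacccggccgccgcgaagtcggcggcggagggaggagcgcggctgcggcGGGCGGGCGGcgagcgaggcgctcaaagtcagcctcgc

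The 2 windows differ in composition. The outer window is 51.2% G and C with 4 CpG, and the inner window is 73.6% G and C with 32 CpG, more than 95.4% of all 32851 windows of this length. The outer window holds 1 GGGTCA, whose first base is 78 bases before the start, and such a match is in 11.6% of all windows. The inner window holds 2 overlapping GGGCGG, present in 32.7% of windows. Neither holds AGGTCA, found in 14.0% of windows, or AGTTCA, found in 11.8%. Neither holds a direct repeat of the searched half-sites 1 to 5 bases apart, which is in 0.365% of windows. The related form GGTTCA was not among the motifs searched, and the outer window holds it on both strands, printed in lower case. The matches given here therefore cover the listed motifs only. Across the 8 windows of *Ncor1*, *Ncoa1*, *Med1*, *Nrip1*, *Crebbp* and *Ep300*, GGGTCA was found in 1, GGGCGG in 6 and AGGTCA in 0. Windows of *Hdac3*, *Ncoa2* and *Ncoa3* were not included. These matches describe letters, and reads of the table cannot be assigned to either start.

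*Ncor1*, the scaffold of the corepressor complex, had the highest signal of the 9 in WT, at place 238 of all 18364 genes, before any division by length. Its signal was 526 and 517 in WT and 428 and 462 in Rxra-KO, from 284 to 476 reads. Both Rxra-KO libraries lay below both WT libraries, as they did for 19.3% of all genes, but the difference did not pass (log2 fold change -0.23, 95% confidence interval -0.67 to 0.21, limma adjusted *p* = 0.845). In fold terms the interval runs from 0.63 to 1.16 of the WT level.

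*Hdac3*, the deacetylase that NCOR1 activates, had the lowest signal of the 9 in each library, before any division by length. It had 8 and 3 WT reads against 7 and 14, for a signal of 12.9, 3.80, 11.3 and 14.4. The groups overlapped, and the log2 fold change of 0.75 had an interval from -0.57 to 2.08 (limma adjusted *p* = 0.821), which at this depth leaves the direction undetermined.

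The NCOA family was led by *Ncoa3* and *Ncoa1*. *Ncoa3*, which encodes SRC-3, had a signal of 397 and 381 in WT and 463 and 444 in Rxra-KO, from 262 to 447 reads. Both Rxra-KO libraries lay above both WT libraries, as for 18.8% of all genes, without passing the test (log2 fold change 0.22, 95% confidence interval -0.22 to 0.66, limma adjusted *p* = 0.864). *Ncoa1*, which encodes SRC-1, stood at 267 and 304 in WT and at 273 and 213 in Rxra-KO, with overlap between the groups (log2 fold change -0.24, interval -0.71 to 0.23, limma adjusted *p* = 0.853).

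*Ncoa2*, which encodes SRC-2, was much lower, with a signal of 40.1 and 45.0 in WT and 36.9 and 50.2 in Rxra-KO. Its groups overlapped, and the log2 fold change was 0.02 (interval -0.70 to 0.74, limma adjusted *p* = 0.994). Of the reads of the 3 genes in a library, *Ncoa3* took 56.5% and 52.2% in WT against 60.0% and 62.9% in Rxra-KO. *Ncoa1* took 37.9% and 41.7% in WT against 35.4% and 30.1%, and *Ncoa2* took 4.69% to 7.03% in the 4 libraries. Thus the *Ncoa3* share was higher and the *Ncoa1* share lower in both libraries labelled Rxra-KO than in both WT libraries. Shares of the same sum move against each other, so they are not separate evidence, and neither gene passed the test.

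*Crebbp* and *Ep300* encode the paired acetyltransferases CBP and EP300, which acetylate histones at enhancers and promoters. *Crebbp* had a signal of 61.3 and 103 in WT and 118 and 93.9 in Rxra-KO, with overlapping groups (log2 fold change 0.40, interval -0.17 to 0.98, limma adjusted *p* = 0.736). The difference was smaller than the spread between the WT libraries and went from 0.04 when WT replicate 1 was left out to 0.77 when WT replicate 2 was. *Ep300* had 49.2 and 74.3 in WT against 64.0 and 65.1, so that both Rxra-KO libraries lay between the WT libraries (log2 fold change 0.09, interval -0.55 to 0.73, limma adjusted *p* = 0.981).

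*Med1*, the Mediator subunit that contacts nuclear receptors, had a signal of 68.9 and 92.8 in WT and 85.1 and 95.8 in Rxra-KO. Its groups overlapped (log2 fold change 0.17, interval -0.41 to 0.76, limma adjusted *p* = 0.945). For *Ncor1*, *Ncoa1*, *Ncoa2*, *Ncoa3*, *Med1*, *Crebbp* and *Ep300*, the interval of the log2 fold change stayed within -0.71 and 0.98. For each gene, differences inside its own interval remained possible with 2 libraries a group.

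**Figure D1:**
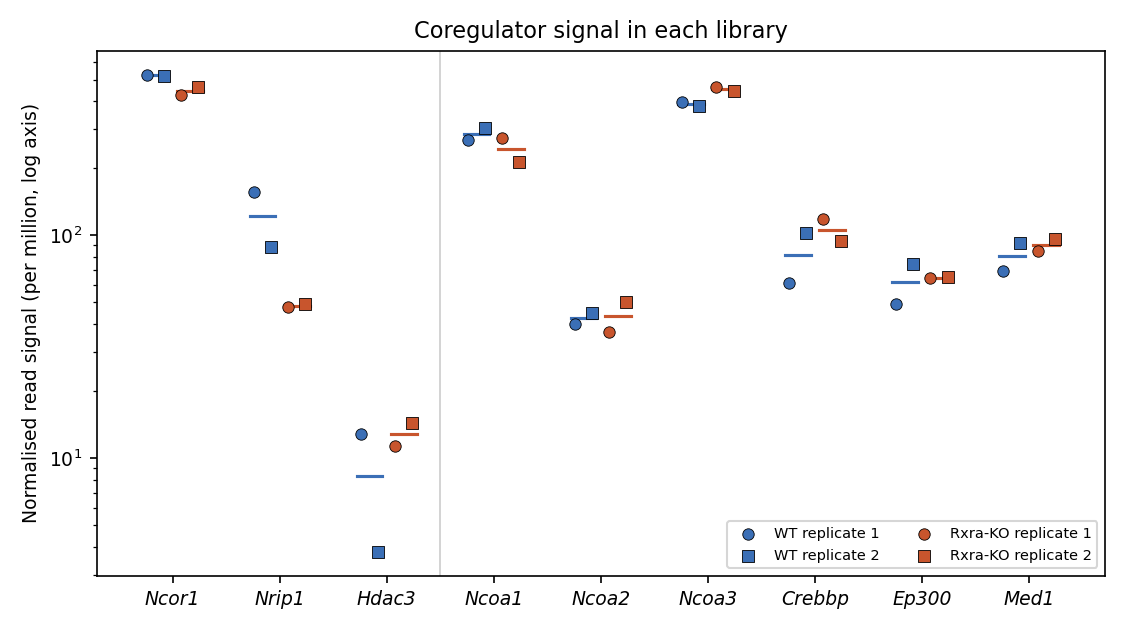
Normalised read signal (log axis) of the 9 coregulators in each of the 4 libraries, with circles for replicate 1, squares for replicate 2 and bars for the mean of 2 libraries; a vertical line parts corepressors from coactivators and *Med1*. *Nrip1* lies at 157 and 88.4 in WT and at 47.4 and 49.2 in the libraries labelled Rxra-KO, while *Hdac3*, not divided by length, lies lowest, at 3.80 to 14.4.

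**Figure D2:**
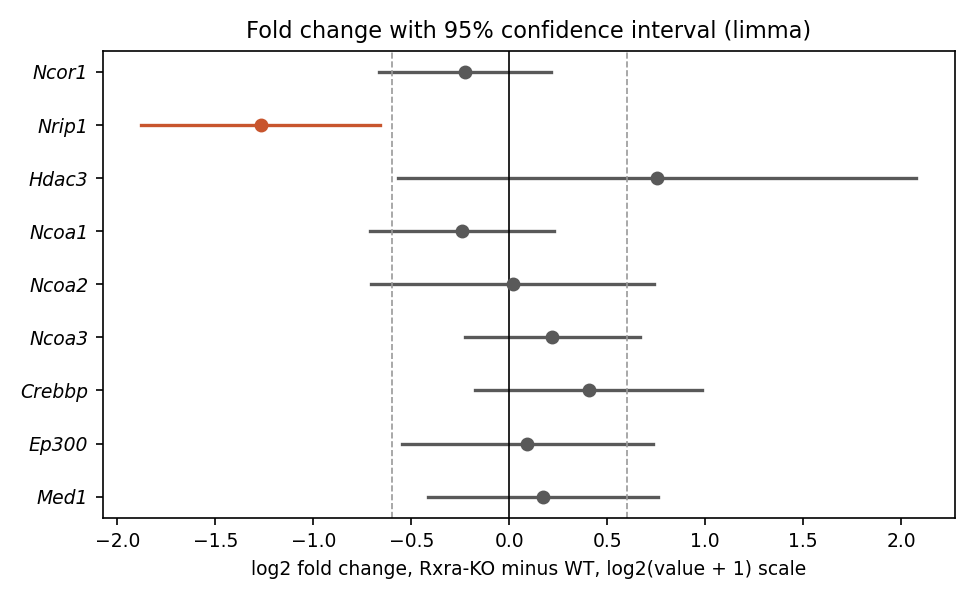
Log2 fold change of the libraries labelled Rxra-KO against WT on the log2(value + 1) scale (points), with its 95% confidence interval from limma (lines) and the fold threshold of 0.6 in either direction (dashed). The interval of *Nrip1*, from -1.88 to -0.66, is the one that does not include 0.

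Levels can be compared between genes only per length, so the signal was divided by the length of the longest coding transcript of each gene in GENCODE vM21. Per kilobase, *Ncor1* (57.7 ± 0.721), *Ncoa3* (51.7 ± 1.51) and *Ncoa1* (39.0 ± 3.57) were the highest in WT (SD, n = 2), in this order in both WT libraries and with no overlap between them. *Nrip1* came next at 15.6 ± 6.14, and its libraries overlapped those of *Med1* at 10.1 ± 2.10. *Crebbp* (7.57), *Ep300* (6.46), *Ncoa2* (5.21) and *Hdac3* (4.10) followed by their means per kilobase, each with libraries that overlapped those of its neighbour in the order.

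In the libraries labelled Rxra-KO the order per kilobase was different at the top and among the lower genes. *Ncoa3* was first at 60.3 ± 1.74 and *Ncor1* second at 49.3 ± 2.66 (SD, n = 2), in both Rxra-KO libraries and without overlap. *Ncoa1* followed at 33.2 ± 5.81, then *Med1* at 11.3 ± 0.949 and *Crebbp* at 9.80 ± 1.59, which overlapped. *Nrip1*, in place 4 by its mean in WT, was in place 8 at 6.14 ± 0.156, and its libraries overlapped those of *Hdac3* (place 7, from 9 in WT) and *Ncoa2* (place 9, from 8). Annotated exons of other genes cover 1 base of *Ncor1*, 68 of *Ncoa1*, 154 of *Ncoa3* and 54 of *Ep300* and none of *Nrip1*, and the library kit does not mark strand.

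Ratios between coregulators within a library do not depend on how libraries were scaled. The summed reads of the 5 coactivators *Ncoa1*, *Ncoa2*, *Ncoa3*, *Crebbp* and *Ep300* were 1.54 and 1.75 times the *Ncor1* reads in the WT libraries and 2.23 and 1.87 times in those labelled Rxra-KO. Both Rxra-KO libraries were above both WT libraries, by a mean of 0.31 on the log2 scale, with an SD of 0.13 in WT and 0.18 in Rxra-KO (n = 2). The two-sided exact permutation *p* was 0.333, the smallest that 2 libraries against 2 allow, so this difference cannot pass a threshold here. It was 0.45 with *Nrip1* and *Hdac3* added to the corepressors and 0.27 for the NCOA genes alone.

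The ratios of *Nrip1* to each of the other coregulators were computed after its values were seen. For all 8 of them, both libraries labelled Rxra-KO were below both WT libraries. There were 0.297 and 0.170 reads of *Nrip1* for each *Ncor1* read in WT and 0.109 and 0.105 in Rxra-KO. For each *Ncoa3* read there were 0.393 and 0.231 in WT and 0.101 and 0.110 in Rxra-KO. The mean log2 difference ranged from -2.24 against *Hdac3*, with its few reads, to -1.05 against *Ncoa1*. These 8 ratios share the *Nrip1* reads, so they are not separate evidence. Chosen in the same way, the ratio of *Ncoa3* to *Ncoa1* was 1.49 and 1.25 in WT against 1.70 and 2.09, and that of *Crebbp* to *Ep300* was 1.25 and 1.38 in WT against 1.86 and 1.45, each without overlap. The ratio of *Ncoa3* to *Ncoa1* restates their shares given above.

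**Figure D3:**
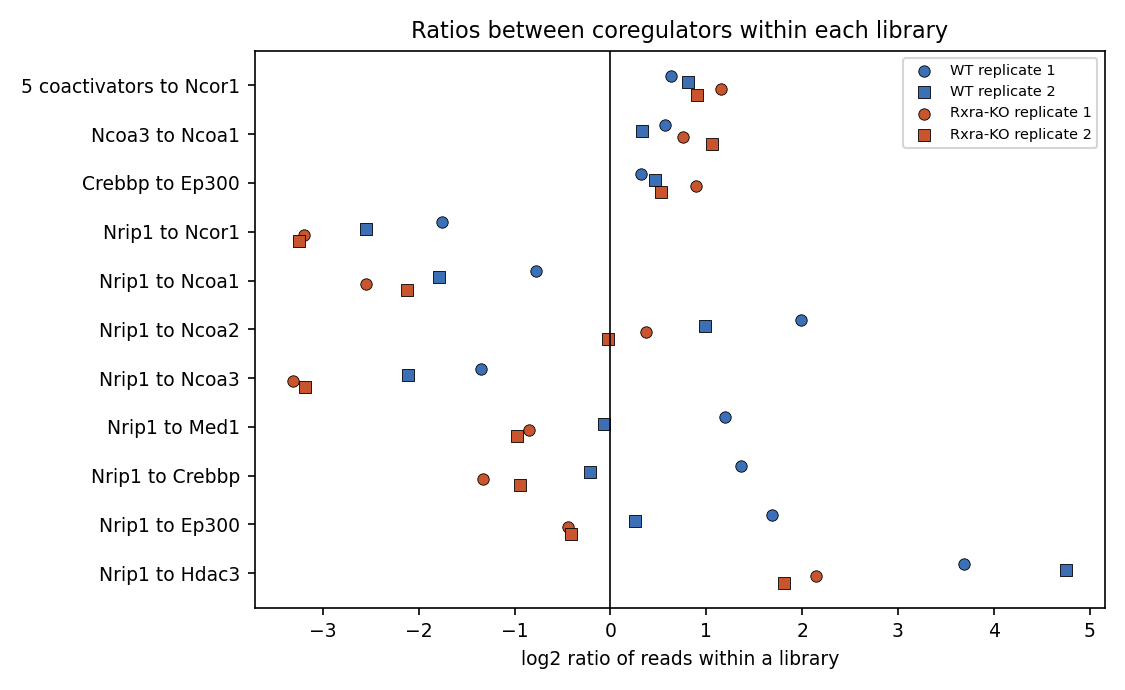
Log2 ratio of reads between coregulators within each library, with circles for replicate 1 and squares for replicate 2. In the 8 ratios that have *Nrip1* as numerator, both libraries labelled Rxra-KO lie to the left of both WT libraries.

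To set *Nrip1* among the other genes of this machinery, 7 further lists were read in the same fit, holding 92 coregulator genes analysed here. Limma called 0 of these 92 genes, where it called 2.29% of all genes. EdgeR, voom and DESeq2 also called 0, as against 446, 422 and 246 of all genes. DESeq2 gave no adjusted p for several of the 92, such as *Gps2*, *Hdac7* and *Rbbp5*, and so could not call them. An unadjusted limma p under 0.05 was found for 5 of the 92, where 10.1% of all genes had one. These were *Sin3b*, *Ncoa4*, *Rbbp5*, *Med13* and *Cdk8*, of which *Med13* (log2 fold change 0.74) and *Cdk8* (0.63) are named here after their values were seen. The median log2 fold change was -0.01, with 45 values above 0 and 47 below, and the smallest adjusted p was 0.195. The groups did not overlap for 28 of the 92 genes, where 38.1% of all genes did not. Of the 92 genes, 68 had a mean of at least 10 reads, so small differences were not detectable for many.

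The partners of NCOR1 came first. *Tbl1x*, *Tbl1xr1*, *Gps2* and *Coro2a*, 4 in all, had log2 fold changes below 0, from -0.68 to -0.18 with a median of -0.34, and none passed. *Tbl1xr1*, which helps exchange corepressors for coactivators, had 40 and 56 WT reads against 37 and 40 (-0.36 in log2 units, limma adjusted *p* = 0.837), and *Gps2* had 10 and 10 against 4 and 9 (-0.68, limma adjusted *p* = 0.835). *Tbl1x*, a close relative of *Tbl1xr1*, had 58 and 77 WT reads against 44 and 87 (-0.18, limma adjusted *p* = 0.945). The groups did not overlap for *Tbl1xr1* and *Gps2* and did for *Tbl1x* and *Coro2a*, where 38.1% of all genes had no overlap.

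Among the other 10 histone deacetylases the median was 0.04, with 5 values above 0 and 5 below and overlapping groups in every one. *Hdac7* had a log2 fold change of -0.43, *Hdac9* of -0.41 and *Hdac2* of 0.40. Among 10 corepressors of other complexes the median was -0.02. *Sin3b*, a scaffold of the SIN3 complex, had 58 and 136 WT reads against 39 and 95 (log2 fold change -0.60, limma adjusted *p* = 0.456), with overlapping groups, while *Lcorl* stood at -0.58 and *Rcor1* at 0.50.

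Among 16 other coactivators the median was -0.04. *Ncoa4*, known both as a coactivator and as the receptor that takes ferritin to autophagy, had 5 and 40 WT reads against 26 and 50 (log2 fold change 1.16, limma adjusted *p* = 0.195), so that the low value was that of WT replicate 1. Without WT replicate 2 it was 2.29 and was called, and without WT replicate 1 it was 0.03. *Helz2*, which encodes a coactivator of PPAR receptors, stood at -0.97 in log2 units (limma adjusted *p* = 0.617), and *Ppargc1b*, which encodes PGC-1β, stood at -0.59 with 4 and 23 WT reads against 7 and 6.

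The chromatin complexes and Mediator did not pass either. In the list of the MLL3 and MLL4 methyltransferase complex, *Rbbp5* had 2 and 7 WT reads against 17 and 15 (log2 fold change 1.68, limma adjusted *p* = 0.217). *Kdm6a* had a log2 fold change of 0.81 and *Pagr1a* of 0.62, and the median over 9 genes was 0.20. The groups did not overlap for 6 of the 9, with 5 higher in Rxra-KO and 1 lower, as against 38.1% of all genes. Over 30 other Mediator genes the median was 0.19, with 19 values above 0. The groups did not overlap for 11 of the 30, as against 38.1% of all genes. *Med7*, *Med23* and *Med22* had log2 fold changes of -1.01, 0.88 and 0.86, each from at most 20 reads in a library. Over 13 genes of the SWI/SNF remodelling complex the median was -0.05, and *Smarcb1*, *Arid1a* and *Smarca2* had log2 fold changes of 0.84, -0.50 and -0.33.

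**Figure D4:**
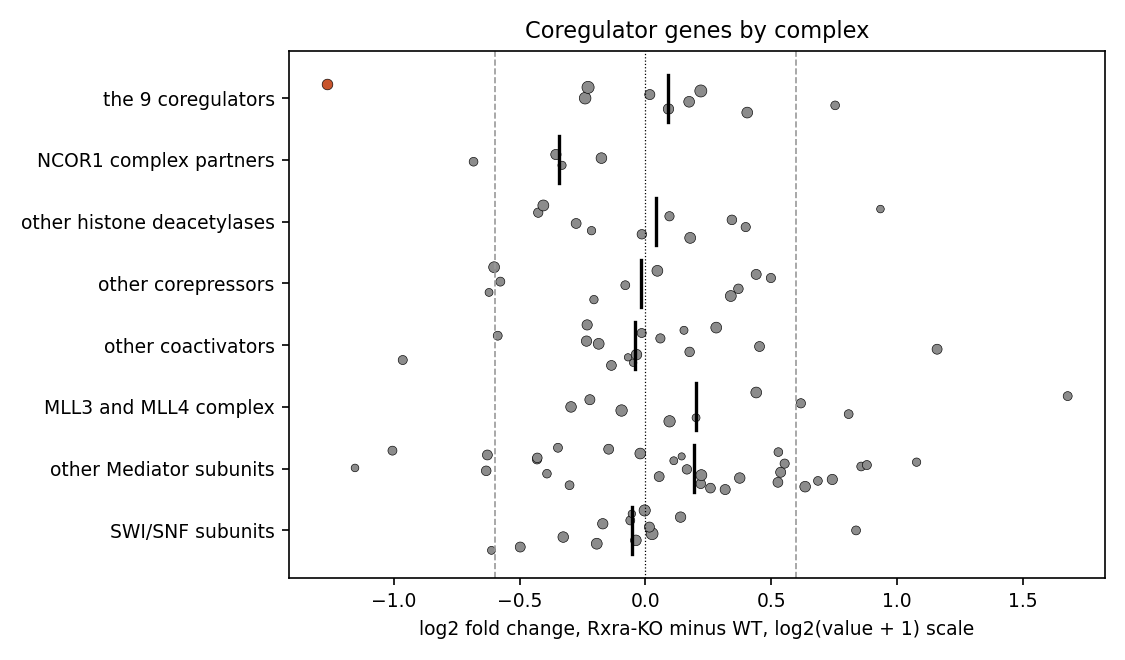
Log2 fold change of the libraries labelled Rxra-KO against WT on the log2(value + 1) scale for the 9 coregulators and the genes of 7 further lists, 1 point a gene, larger with more reads, with the median of each list as a black bar and dashed lines at 0.6 in either direction. The 1 called gene, *Nrip1* at -1.27, is in colour, and list medians lie between -0.34 and 0.20.

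The receptors that recruit these proteins were read for context. Of 16 RXR genes and partner receptors, 1 was called, where 2.29% of all genes were. This was *Pparg*, which encodes the lipid-sensing receptor PPARγ. It had 1 and 0 WT reads against 24 and 6 in the libraries labelled Rxra-KO, at least 5.4-fold higher when WT is set to a floor of 3 reads in each library. From Rxra-KO replicate 2 alone this bound is 1.53-fold, so it rests mainly on Rxra-KO replicate 1. Without Rxra-KO replicate 1 and without WT replicate 2 it was not called (limma adjusted *p* = 0.855 and 0.139). It was called with edgeR but not with voom, nor in limma without a trend or at a mean value of at least 10 (limma adjusted *p* = 0.513 and 0.179), and DESeq2 gave it no adjusted p.

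The genes closest to *Nrip1* in pattern were found by the squared distance between log2(value + 1) values centred on each gene's mean, over 4 libraries and 10032 genes with a mean value of at least 10. They were *B3gat1*, *Zfyve21* and *Perm1*, with distances of 0.0101, 0.02 and 0.0256. *B3gat1* had 12 and 10 WT reads against 3 and 5, and *Zfyve21* had 18 and 13 against 5 and 7. *Perm1* had 22 and 19 WT reads against 7 and 10, and none of the 3 genes passed the test (limma adjusted *p* = 0.32 to 0.517). How much of this closeness is counting error, among 10032 candidates with few reads in these 3, was not tested.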

How the data were processed

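The 4 libraries of sorted LPM RNA fall into WT (2) and Rxra-KO (2) by their labels. Per the methods of the study, cDNA came from the SMART-Seq v4 chemistry for small inputs, and transcripts were quantified with kallisto 0.43.0, summed to genes and scaled with TMM for limma. Since GRCh38, a human assembly, is named for these mouse samples, no coordinates were taken with the table. The unit of the deposited table is a normalised signal, scaled by the authors within each library. Whole reads were recovered from it as value divided by the worth of 1 read, minus 0.5, and 100% of the values were whole within 0.001. The worth of 1 read was 0.993 to 1.51. No molecular identifiers were used, so a floor of 3 reads covers counting error only.

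Each gene was fitted with limma 3.58.1 in R 4.3.3 on log2(value + 1), with a mean-variance trend, all 4 libraries and no covariate. All p-values are two-sided, and Benjamini-Hochberg adjustment covered all 18364 genes. The filter, a value of at least 1 in 2 libraries, removed 0 genes. The trend gave 227 prior against 2 residual degrees of freedom. Alternatives were edgeR 4.0.16 and DESeq2 1.42.0 on the recovered reads, voom, other pseudocounts, filters and scalings, a replicate block and leaving out each library. Fits were tested on simulated data. The members, the gene lists and the rule for names were chosen with earlier results of these data known. Named genes were the 9 coregulators, *Rxra*, called genes of the lists, up to 3 genes of each coregulator list with the largest absolute log2 fold change at a mean value of at least 10, and the 3 genes nearest in pattern. *Emr1* is the older symbol of *Adgre1*. Of 95 further coregulators listed, 92 were analysed, 3 had no entry under their symbol and were not analysed here, and 1 gene beyond these is not reported here. A list of 8 immediate early and stress genes, read as a sign of handling, had 0 calls with limma, edgeR, voom or DESeq2, 2 genes at an unadjusted p under 0.05 (*Junb* and *Jun*) and a median log2 fold change of -0.45. Over all genes, limma called 2.29%, and 10.1% had an unadjusted p under 0.05. Gene models were GENCODE vM21, and promoter windows were from RefSeq on GRCm38.p6. Figures were drawn with matplotlib.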

Additional observations from a re-analysis of the deposited data

How the results depend on the processing

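*Nrip1* was called, and no other coregulator of the 9, with pseudocounts of 0.1 and 5, no filter, a mean value of at least 10, TMM, upper quartile and median-of-ratios scaling, voom, edgeR and DESeq2 (adjusted *p* from 0.00221 to 0.0449). DESeq2 gave *Hdac3* no adjusted p and so could not call it. Limma without a trend called 0 of the 9 coregulators and 0 of all genes, with 1579 genes at an unadjusted p under 0.05, and gave *Nrip1* an adjusted *p* of 0.544. Against 421 genes in all, 246 were called with DESeq2 and 236 to 377 when 1 library was left out. Leaving out 1 library left 0 to 1 of the 9 coregulators and 0 to 1 of the 92 others called, the last being *Ncoa4*. The causes were not tested. The run with no filter kept the same 18364 genes and was thus no separate test. *Ncoa2* was at -0.0034 with median-of-ratios scaling. When each library was left out, log2 fold changes that crossed 0 ran from -0.20 to 0.23 for *Ncoa2*, from -0.0383 to 0.39 for *Med1*, from -0.0115 to 1.52 for *Hdac3*, from -0.20 to 0.38 for *Ep300*, from -0.93 to 0.0749 for *Hdac7*, from -0.0806 to 0.88 for *Hdac2*, from -0.36 to 0.01 for *Tbl1x* and from -1.47 to 0.29 for *Ppargc1b*. *Ncor1*, *Ncoa1*, *Ncoa3* and *Crebbp* kept their direction in each of these. The coactivator to *Ncor1* ratio ranged from 0.19 to 0.44 on the log2 scale.

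The replicate numbers are shared between the groups, but the deviations of replicates with equal numbers correlated at 0.06 over 10049 genes, so the numbers were not taken to pair the libraries. With a replicate block, 540 genes were called, including all 421, and *Nrip1* stayed the 1 called coregulator (limma adjusted *p* = 0.00092). The block left the coactivator to *Ncor1* ratio at 0.31 (exact permutation *p* = 0.5, the smallest that 2 pairs allow). Depth limits *Hdac3* most, with 3 to 14 reads.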
